A study of Mus musculus with 4 samples.

Results

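The ion and metal transporters described here are solute carrier (Slc) genes of 12 families whose proteins move zinc, iron, manganese, magnesium, phosphate, calcium, sodium, protons, chloride, sulfate or bicarbonate across membranes. They were taken by symbol alone, as every row named Slc4a, Slc8a, Slc9a, Slc11a, Slc12a, Slc20a, Slc24a, Slc26a, Slc30a, Slc34a, Slc39a or Slc41a with a number and nothing after it, which gave 81 of the 24421 genes in the table. A further 3 symbols run on past the number (Slc4a1ap, Slc9a3r1 and Slc9a3r2) and do not encode transporters, so they were kept apart. The libraries came from 4T07, tumorigenic mammary carcinoma cells of Balb/cfC3H mouse origin. There were 2 control libraries and 2 from cells labelled as overexpressing Six2, which encodes a homeodomain transcription factor that keeps kidney progenitors undifferentiated. Cells of both groups grew in medium with 10% calf serum and were lysed 48 hours after plating, and their polyadenylated RNA was sequenced. The sources used here do not give the vector, or say whether either line is a clone.

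Solute carriers are secondary transporters and exchangers: many use the sodium gradient set up by the sodium-potassium pump to move a second ion. Zinc is handled by 2 opposed families, the Slc39a (ZIP) proteins, which bring zinc into the cytosol from outside or from organelles, and the Slc30a (ZnT) proteins, which take it out of the cytosol. Mammary epithelium is known for loading zinc and calcium into milk, and tumour cells of the breast for exporting acid through sodium-proton exchangers and sodium-bicarbonate cotransporters.

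Levels are RPKM, which corrects reads for the length of the gene and the depth of the library and allows levels of different genes to be compared. Read totals were between 41881864 and 81524250, highest in Six2 replicate 2. Six2 itself was listed at 0.0285 RPKM in Six2 replicate 1 and at 0 in the other 3 libraries. The overexpression could therefore not be seen in these values, and the groups are named by their labels. Of 6 epithelial carcinoma markers, Krt8 (607 to 1059 RPKM) and Krt18 (389 to 800 RPKM) were abundant in every library. Epcam stayed under 1 RPKM and was lower without overlap, at 0.720 and 0.684 RPKM in control cells against 0.214 and 0.0833 RPKM in Six2 libraries. The other 3 were low or near 0 in the libraries labelled Six2: Krt7 fell from 10.8 and 8.67 RPKM in control cells to 0.467 and 0.634 RPKM (adjusted p = 0.0397), Krt19 was at 8.76 and 4.26 RPKM against 0.802 and 0.464 RPKM (adjusted p = 0.119), and Cdh1 was at 14.6 and 8.40 RPKM against 0.186 and 0.103 RPKM (adjusted p = 0.0592). Of 2 mesenchymal markers, Vim overlapped, at 1300 and 1553 RPKM in control cells against 1427 and 1524 RPKM in Six2 libraries. Fn1 was lower without overlap, at 667 and 407 RPKM against 287 and 206 RPKM (adjusted p = 0.204). Summed over 6 leukocyte markers the level was 0.0253 to 0.201 RPKM, and over 4 endothelial markers 0.0157 to 0.128 RPKM. The adipocyte marker Fabp4 was at 1.19 and 1.23 RPKM in control cells against 0.219 and 0.249 RPKM in Six2 libraries, with Adipoq at or near 0; the summed fibroblast markers were at 9.63 and 5.17 RPKM against 7.40 and 5.16 RPKM, almost all Pdgfra, with Thy1 at 0. The part of these markers in the results was not tested. Nothing says that replicates were separate cultures, so p-values weigh a difference against spread that may be technical, and fewer cells with a transcript cannot be told apart from less of it per cell.

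Among the transporters high enough to be tested, 3 genes stood lowest relative to control in the libraries labelled Six2. They were the zinc importer genes Slc39a4 and Slc39a8 and the sodium-bicarbonate cotransporter gene Slc4a4, each at less than 0.4 of its control mean. At the other end Slc41a1, for a magnesium transporter, had the highest difference on the log2(RPKM + 1) scale and was 1.47 times its control mean. The ratio of Slc4a11 was larger, at 1.64, but its groups overlapped. Most members differed little. Of the 81, 39 reached 1 RPKM in at least 2 libraries and were tested, and 24 of those differed by less than 0.25 on the log2(RPKM + 1) scale. All differences here are on that scale, Six2 minus control; the added 1 shrinks those of low genes. In limma's test with Benjamini-Hochberg adjustment over 10654 genes, 0 of 39 members passed an adjusted p of 0.05 upward and 0 downward, against 0.0282% and 0.0845% of all genes tested. At an unadjusted p under 0.05, 2 members were higher (background 7.36%) and 5 lower (background 9.66%). With limma-voom on reads recovered from the RPKM steps, 0 were again called (backgrounds 0.0282% upward and 0.103% downward), with 2 higher (background 7.16%) and 4 lower (background 9.86%) at an unadjusted p under 0.05.

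The list as a whole lay close to the background. Its median difference was 0.07 on the log2(RPKM + 1) scale against -0.01 for all genes tested, and the median size of a difference, sign ignored, was 0.176 against 0.165. Both Six2 libraries lay above both control libraries for 9 of 39 members (23.1%, background 21.9%), and below them for another 9 (23.1%, background 25.5%). A log2 difference of -1 or below was reached by 3 of 39 members, where 1.9% of all genes tested reached it, and none reached 1 upward (background 0.422%). With 1 library left out, only 3 libraries have to separate, and the counts and the background were both larger. The higher count was 14 without Six2 replicate 1 (background 36.2%), 17 without Six2 replicate 2 (33.1%), 11 without control replicate 1 (33.7%) and 17 without control replicate 2 (36.5%). The lower count was 15 (background 40.3%), 14 (36.8%), 14 (36.9%) and 12 (41.1%) in the same order. With no filter on low values, 10 of 70 members were higher without overlap (background 18.4%) and 18 lower (background 24.5%). The plot of levels shows where each gene sits.

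**Figure D1:**
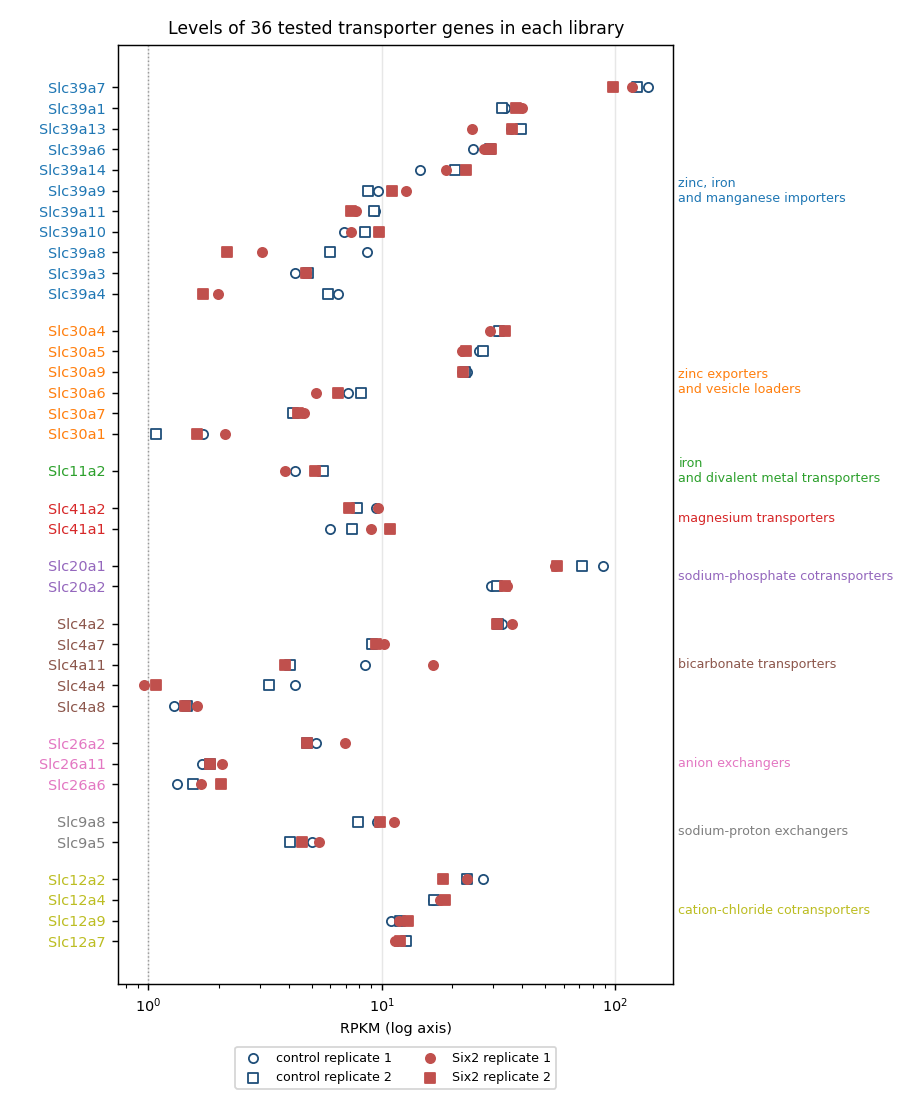
RPKM (log axis) of 36 tested transporter genes, 1 row a gene, grouped by role; open symbols are control and filled symbols Six2 libraries, circles replicate 1 and squares replicate 2. Levels run from Slc39a7 at 97.3 to 138 RPKM down to Slc4a4 at 0.955 RPKM in Six2 replicate 1, and filled and open symbols are clearly apart for Slc39a4, Slc39a8 and Slc4a4.

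Zinc importers were the most abundant family. All 14 Slc39a genes were in the table, 11 were tested, and their summed level was 292 and 289 RPKM in control cells against 266 and 260 RPKM in the libraries labelled Six2. Slc39a7, whose protein releases zinc from the endoplasmic reticulum, made up 37.4% to 47.3% of that sum. It was at 138 and 124 RPKM in control cells against 118 and 97.3 RPKM in Six2 libraries, a difference of -0.28 (SE 0.136, adjusted p = 0.386). The groups did not overlap, but the nearest libraries were only 124 and 118 RPKM. Slc39a7 lies on chromosome 17, whose tested genes had a median difference of -0.21, and its difference with chromosome medians removed was -0.07.

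Slc39a4 encodes ZIP4, the plasma membrane zinc importer of the gut whose loss in people causes acrodermatitis enteropathica. It lies on GRCm38 chromosome 15, 76612383 to 76617384, minus strand (ENSMUSG00000063354.7). Its level was 6.52 and 5.88 RPKM in control replicates 1 and 2, and 2.00 and 1.72 RPKM in Six2 replicates 1 and 2. Both control libraries thus stood well above both Six2 libraries, with mean levels of 6.20 ± 0.456 and 1.86 ± 0.197 RPKM (SD, n = 2 per group), a ratio of 3.34. The difference was -1.33 (SE 0.125, adjusted p = 0.0726), the smallest adjusted p of the 39 members, and it stayed between -1.40 and -1.26 with any 1 library left out.

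Slc39a8 encodes ZIP8, an importer of zinc, manganese and cadmium. It lies on chromosome 3, 135825279 to 135888572, plus strand (ENSMUSG00000053897.15). It was at 8.61 and 6.001 RPKM in control cells against 3.06 and 2.17 RPKM in Six2 libraries, a ratio of means of 2.79. No Six2 library reached the lower control library. The difference was -1.19 (SE 0.222, adjusted p = 0.143), and between -1.42 and -0.96 with any 1 library left out. Because tested genes of chromosome 3 had a median difference of 0.21, the Slc39a8 difference was -1.40 with chromosome medians removed. Slc39a4 and Slc39a8 together made up 5.18% and 4.12% of the Slc39a sum in control cells and 1.90% and 1.496% in the libraries labelled Six2.

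The remaining zinc importers went either way by small amounts. Slc39a9, for an importer of the Golgi and cell surface, was at 9.60 and 8.74 RPKM in control cells against 12.7 and 11.1 RPKM in Six2 libraries (difference 0.34, SE 0.121, adjusted p = 0.274). Its chromosome, 12, had a median difference of 0.25, and with chromosome medians removed Slc39a9 differed by 0.11. Slc39a1, the ubiquitous plasma membrane importer ZIP1, was at 33.5 and 32.8 RPKM against 39.6 and 37.4 RPKM (difference 0.21, SE 0.0927), and at -0.00106 with chromosome medians removed. Both differences were smaller once chromosome medians were removed. Slc39a11 was lower without overlap, at 9.32 and 9.30 RPKM in control cells against 7.74 and 7.37 RPKM in Six2 libraries (difference -0.27, SE 0.099, adjusted p = 0.29).

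Other Slc39a genes overlapped between groups. The iron and zinc importer gene Slc39a14 was at 14.6 and 20.5 RPKM in control cells against 18.9 and 22.9 RPKM in Six2 libraries, the second replicate being the higher in each group. Slc39a13 was at 35.8 and 39.3 RPKM against 24.2 and 36.1 RPKM, so that Six2 replicate 1 alone stood apart. Slc39a6, Slc39a10 and Slc39a3 differed by 0.09, 0.13 and 0.05. These 5 genes lay outside the naming rule and were added for completeness after their values were seen.

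**Figure D2:**
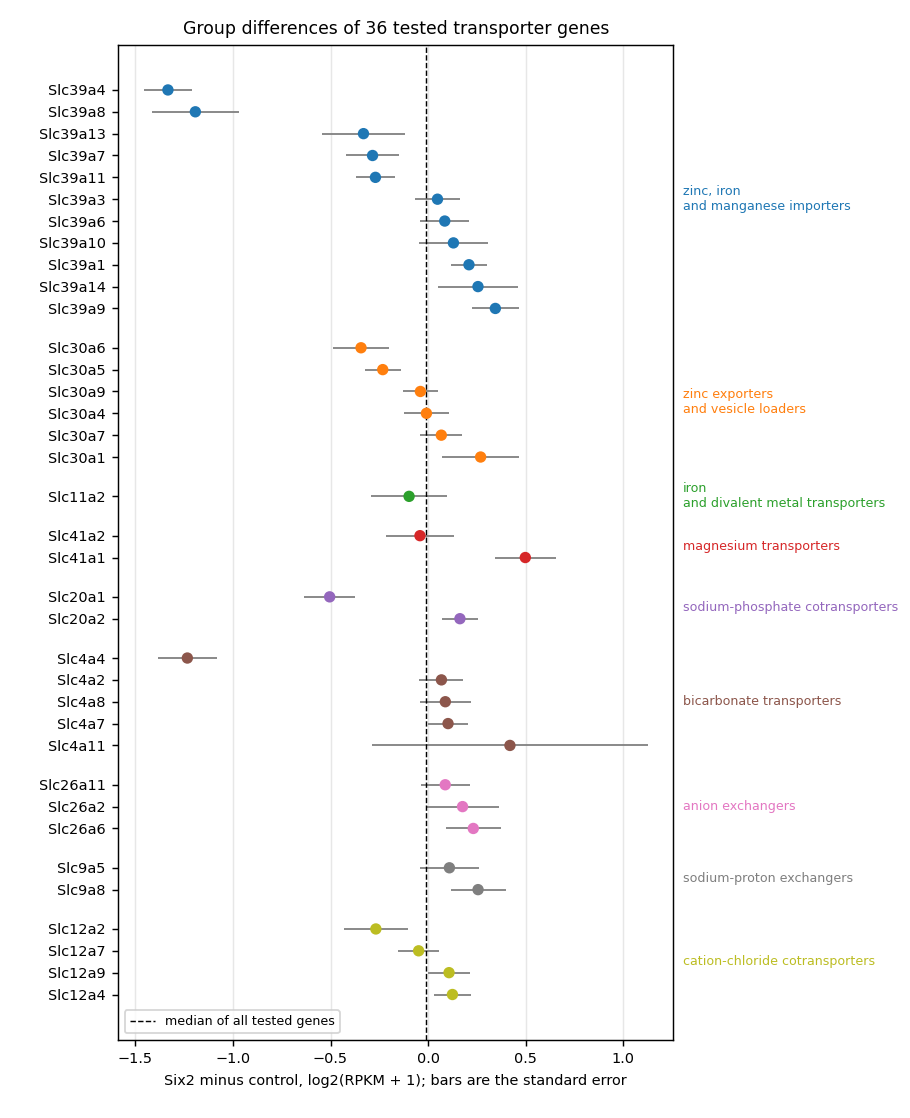
Difference between Six2 and control groups on the log2(RPKM + 1) scale for 36 tested transporter genes, grouped by role, with standard errors; the dashed line is the median of all tested genes, -0.01. Slc39a4, Slc39a8 and Slc4a4 lie beyond -1, Slc41a1 is the highest at 0.50, and Slc4a11 has the widest bar.

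No zinc exporter had a difference as low as those of Slc39a4 and Slc39a8. Of 10 Slc30a genes 6 were tested, with differences from -0.34 to 0.27. The summed level was 93.7 and 95.0 RPKM in control cells against 85.2 and 91.5 RPKM in Six2 libraries. Slc30a4, the vesicular transporter whose mutation underlies the zinc-poor milk of the lethal milk mouse, was the most abundant at 31.2 and 31.9 RPKM against 29.0 and 33.8 RPKM, with overlapping groups (difference -0.00883, SE 0.114). The partners Slc30a5 and Slc30a6, which pair to load zinc into the early secretory pathway, were both lower without overlap. Slc30a5 was at 26.2 and 27.0 RPKM in control cells against 22.0 and 22.9 RPKM in Six2 libraries (difference -0.23, SE 0.0926, adjusted p = 0.317). Slc30a6 was at 7.18 and 8.16 RPKM against 5.23 and 6.46 RPKM (difference -0.34, SE 0.144, adjusted p = 0.336). Slc30a6 also lies on chromosome 17, and differed by -0.13 with chromosome medians removed. The Golgi transporter gene Slc30a7 (difference 0.07) and the mitochondrial zinc exporter gene Slc30a9 (difference -0.04, 22.1 to 23.1 RPKM) barely differed.

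Slc30a1 encodes the plasma membrane exporter ZnT1, a textbook target of the zinc-sensing factor MTF1, which binds metal response elements. It lay outside the naming rule and is given for that reason. Slc30a1 was at 1.71 and 1.08 RPKM in control cells against 2.13 and 1.62 RPKM in Six2 libraries, with overlapping groups. The metallothionein genes Mt1 and Mt2, the best known MTF1 targets, were abundant. Mt1 was at 293 and 265 RPKM in control cells against 348 and 261 RPKM in Six2 libraries (difference 0.11, SE 0.17). Mt2 was at 184 and 154 RPKM against 171 and 118 RPKM (difference -0.24, SE 0.214). For neither was the difference larger than the spread between replicates.

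To show what the promoters of the members at both ends of the ranking hold, the 250 bases before the most upstream RefSeq start (GRCm38.p6) are printed 5′ to 3′ for the genes with an entry, with Slc30a1 as a known MTF1 target. They were chosen after the levels were seen, and Slc39a4 had no entry. The windows of Slc4a4 and Slc41a1 lie inside the GENCODE gene, downstream of its annotated start. Capitals mark the metal response element core, searched as TGCACNC and TGCGCNC on both strands.
Slc39a8 chr3:135825029-135825278 (plus strand): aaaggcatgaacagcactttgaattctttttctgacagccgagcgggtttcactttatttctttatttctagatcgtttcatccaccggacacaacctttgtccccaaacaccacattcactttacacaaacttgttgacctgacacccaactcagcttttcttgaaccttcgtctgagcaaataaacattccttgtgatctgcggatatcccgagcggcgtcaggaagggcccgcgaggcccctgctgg
Slc4a4 chr5:88887010-88887259 (plus strand): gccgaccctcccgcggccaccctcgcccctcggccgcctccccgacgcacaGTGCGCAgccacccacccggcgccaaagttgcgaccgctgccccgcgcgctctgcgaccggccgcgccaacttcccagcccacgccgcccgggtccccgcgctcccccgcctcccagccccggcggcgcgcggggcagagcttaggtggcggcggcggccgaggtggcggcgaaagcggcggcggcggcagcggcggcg
Slc20a1 chr2:129198523-129198772 (plus strand): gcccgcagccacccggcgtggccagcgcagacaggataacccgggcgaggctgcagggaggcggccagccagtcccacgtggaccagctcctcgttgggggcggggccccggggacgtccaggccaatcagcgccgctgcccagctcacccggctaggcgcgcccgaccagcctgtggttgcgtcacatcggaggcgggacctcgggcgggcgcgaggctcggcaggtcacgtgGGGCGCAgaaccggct
Slc41a1 chr1:131827762-131828011 (plus strand): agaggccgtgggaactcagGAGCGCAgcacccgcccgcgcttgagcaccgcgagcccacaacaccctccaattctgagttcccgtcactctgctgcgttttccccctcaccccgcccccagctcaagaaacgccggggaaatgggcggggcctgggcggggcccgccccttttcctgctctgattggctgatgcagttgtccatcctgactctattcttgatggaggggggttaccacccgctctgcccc
Slc30a1 chr1:191906531-191906780 (plus strand): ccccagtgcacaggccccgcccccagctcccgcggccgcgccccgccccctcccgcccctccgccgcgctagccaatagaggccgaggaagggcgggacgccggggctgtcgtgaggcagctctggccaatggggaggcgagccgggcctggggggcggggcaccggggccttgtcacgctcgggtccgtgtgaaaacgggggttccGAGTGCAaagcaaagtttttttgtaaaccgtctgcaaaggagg
Slc39a8 has no match in its window, and the other 4 windows have 1 match each. Of 27 tested members with a RefSeq window, 11 (40.7%) held the core, where 21.4% of all 32851 windows of the same length did; base composition was not matched. Among the zinc transporters alone it was 5 of 14. TCAGGTT, the core of the MEF3 motif bound by Six2 and its relatives, searched on both strands, was in 1 of the 27 (3.70%), Slc4a8, against 3.49% of all windows. A match is a description of these letters and not of a bound site.

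**Figure D3:**
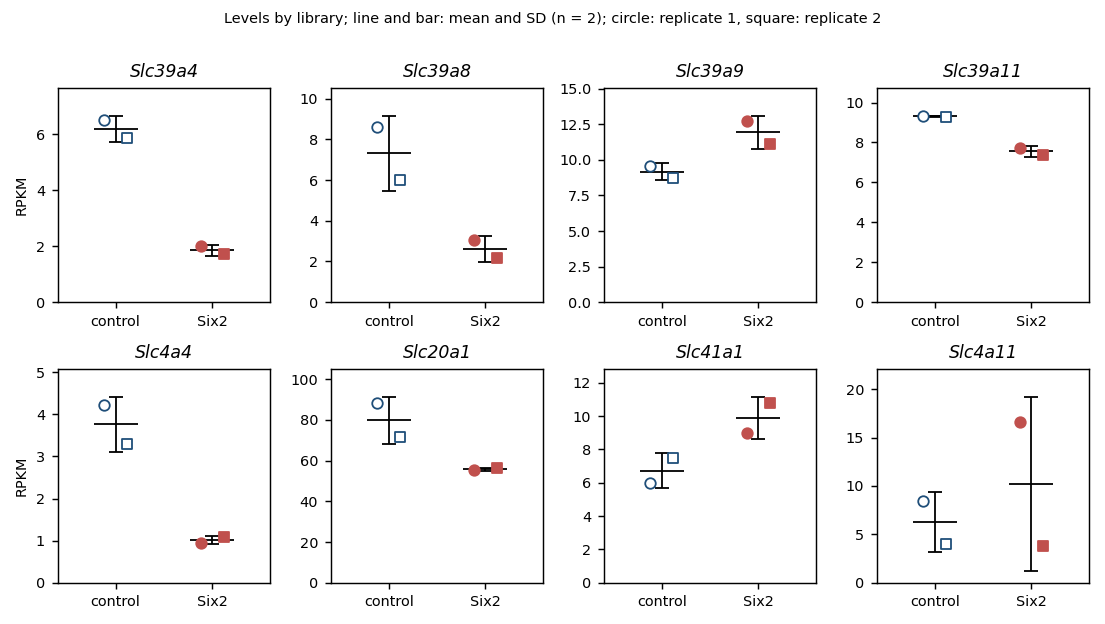
RPKM by library for 8 transporter genes, on linear axes from 0; symbols are libraries, and the line and bar are the mean and SD (n = 2). Groups are apart for Slc39a4, Slc39a8, Slc39a9, Slc39a11, Slc4a4, Slc20a1 and Slc41a1, whereas for Slc4a11 the highest and lowest libraries are both from the Six2 group.

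Of the magnesium carriers 1 was higher without overlap, and of the phosphate carrier genes 1 was higher and 1 lower without overlap. Slc41a1, a magnesium transporter of the plasma membrane, lies on chromosome 1, 131827493 to 131848865. It was at 5.99 and 7.46 RPKM in control cells against 8.99 and 10.8 RPKM in the libraries labelled Six2, without overlap. The difference was 0.50 (SE 0.158, adjusted p = 0.242), the highest of the 39 members. Tested genes of chromosome 1 had a median difference of 0.32, and with chromosome medians removed Slc41a1 differed by 0.18. Slc41a2 overlapped, at 9.48 and 7.87 RPKM against 9.61 and 7.26 RPKM.

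Slc20a1 encodes PiT1, a sodium-phosphate cotransporter that also serves as a receptor for gammaretroviruses, and lies on chromosome 2, 129198764 to 129211616. It was the second most abundant member, at 88.1 and 71.8 RPKM in control cells against 55.3 and 56.3 RPKM in Six2 libraries. The ratio of means was 1.43 and the difference -0.50 (SE 0.131, adjusted p = 0.196), with both control libraries higher. Its relative Slc20a2 (PiT2) was at 29.4 and 31.1 RPKM against 34.3 and 33.6 RPKM, higher without overlap by 0.16 (SE 0.093, adjusted p = 0.456). The summed level of the phosphate carriers was 117 and 103 RPKM in control cells against 89.6 and 89.9 RPKM in Six2 libraries. Slc34a1 and Slc34a3, carriers of the kidney, had 0 reads throughout, and Slc34a2 had at most 1 read a library.

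In the acid-base group, Slc4a4 was the gene that stood apart. It encodes the electrogenic sodium-bicarbonate cotransporter NBCe1 and lies on chromosome 5, 88886818 to 89239653, plus strand (ENSMUSG00000060961.14). Its level was 4.23 and 3.30 RPKM in control cells against 0.955 and 1.08 RPKM in Six2 libraries, a ratio of means of 3.70, the largest of the tested members. The difference was -1.23 (SE 0.152, adjusted p = 0.0983), and between -1.37 and -1.09 with any 1 library left out. Most other bicarbonate carriers were near their control levels: the chloride-bicarbonate exchanger gene Slc4a2 was at 32.6 and 31.3 RPKM against 36.0 and 31.2 RPKM (difference 0.07, SE 0.113), and the electroneutral cotransporter genes Slc4a7 and Slc4a8 differed by 0.10 (SE 0.101) and 0.09 (SE 0.13). Slc4a11, named after its values were seen, was at 8.46 and 4.04 RPKM in control cells against 16.6 and 3.84 RPKM in Six2 libraries. Replicate 1 was the higher in both groups, by more than the groups differed (difference 0.42, SE 0.708).

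Of the 9 sodium-proton exchangers 4 were tested. Slc9a8, of the Golgi, was at 9.51 and 7.88 RPKM in control cells against 11.3 and 9.82 RPKM in Six2 libraries, higher without overlap by 0.26 (SE 0.141, adjusted p = 0.444). Slc9a5 overlapped, with a difference of 0.11. The epithelial exchangers Slc9a3 and Slc9a4 had 0 reads. Of the anion exchangers 3 of 11 were tested, and all 3 were above 0: the sulfate transporter gene Slc26a2 by 0.18 (SE 0.187), Slc26a11 by 0.09 (SE 0.125) and Slc26a6 by 0.23 (SE 0.142), the last without overlap at 1.33 and 1.55 RPKM in control cells against 1.68 and 2.06 RPKM in Six2 libraries. None of these passed the test.

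Of the cation-chloride cotransporters, which set cell volume and chloride, 5 of 9 were tested. Slc12a2, the sodium-potassium-chloride importer NKCC1, was at 27.2 and 23.0 RPKM in control cells against 23.2 and 18.3 RPKM in Six2 libraries. Its groups overlapped (difference -0.27, SE 0.163, adjusted p = 0.482). Slc12a4, the potassium-chloride exporter KCC1, was higher without overlap, at 16.5 and 16.7 RPKM against 17.7 and 18.7 RPKM (difference 0.12, SE 0.0952). The exporter gene Slc12a7 differed by -0.05 and the orphan Slc12a9 by 0.11. Slc11a2, the divalent metal importer DMT1 and the only tested Slc11a gene, was at 4.23 and 5.60 RPKM against 3.86 and 5.20 RPKM (difference -0.10, SE 0.194).

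The other 42 members fell below the level needed for testing. Of these 11 had 0 reads in all 4 libraries, where 3 reads on a gene of 1 kb would be 0.0368 to 0.0716 RPKM, a limit that covers counting error only. A further 9 were above 0 in 1 library only, at up to 0.0172 RPKM, and 12 had at most 10 reads in every library. The whole sodium-calcium exchanger group is among the 42: none of its 8 genes was tested, and their summed level was 0.101 to 0.264 RPKM. In the leading member Slc8a3, 23 and 16 reads in control cells stood against 62 and 39 in Six2 libraries, but the deeper sequencing left overlapping levels of 0.105 and 0.0754 RPKM against 0.245 and 0.0944 RPKM.

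Among the low genes the groups were apart for 1 of 42 in the higher and 9 of 42 in the lower direction, mostly on a handful of reads, where 5.39% and 9.95% of all genes below that level were. Slc12a1, the kidney cotransporter NKCC2, had 69 and 43 reads in control cells (0.338 and 0.217 RPKM) and 26 and 25 in Six2 libraries (0.11 and 0.0647 RPKM). Slc26a9, an epithelial chloride channel and exchanger, had 1 and 1 reads in control cells and 23 and 17 in Six2 libraries (0.127 and 0.0573 RPKM); it was named after its values were seen. Neither was tested.

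Around the transporters, 56 genes of ion and metal handling were listed as partners, and 44 were tested. Of these 0 passed over all genes. At an unadjusted p under 0.05, 5 were higher (background 7.36%) and 10 lower (background 9.66%), and the median difference was 0.0075. With limma-voom on recovered reads 0 passed, with 5 higher (background 7.16%) and 10 lower (background 9.86%) at an unadjusted p under 0.05. The proton and bicarbonate group held 5 of those 10 lower genes, out of 8 tested. They were the membrane carbonic anhydrase gene Car12 (5.34 and 8.01 RPKM in control cells against 3.88 and 3.35 RPKM in Six2 libraries), the exchanger cofactor gene Chp1 (47.9 and 44.8 against 39.1 and 36.0 RPKM), the scaffold genes Slc9a3r1 (27.2 and 27.8 against 21.2 and 21.8 RPKM) and Slc9a3r2 (10.9 and 9.73 against 6.995 and 7.29 RPKM), and Ezr (168 and 142 against 122 and 105 RPKM), whose product ezrin ties those scaffolds to actin. In all 5 both control libraries were above both Six2 libraries (background 25.5%), with differences from -0.71 to -0.30. They were picked at an unadjusted p under 0.05, which favours groups that do not overlap. The other 3 tested genes of this group were higher without overlap (background 21.9%). Ezr and Slc9a3r2 lie on chromosome 17 and differed by -0.23 and -0.26 with chromosome medians removed.

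Car9, the hypoxia-induced carbonic anhydrase of tumour surfaces, went the other way. It was at 2.94 and 2.63 RPKM in control cells against 16.5 and 8.26 RPKM in Six2 libraries (difference 1.75, SE 0.33, adjusted p = 0.143). Both Six2 libraries were well above control, and the difference depended on which of them was kept. Without Six2 replicate 2 it was 2.21 (adjusted p = 0.0145) and without Six2 replicate 1 it was 1.29 (adjusted p = 0.0932); the Six2 group is then 1 library, assumed to vary like the control group. The cytosolic Car13 was at 40.98 and 40.9 RPKM against 50.6 and 50.8 RPKM (difference 0.30, SE 0.0869, adjusted p = 0.218), and 0.09 higher with chromosome medians removed.

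Among the kinases that regulate chloride cotransporters, Stk39, which encodes SPAK, was lower. It was at 11.9 and 12.1 RPKM in control cells against 4.34 and 5.57 RPKM in Six2 libraries, a ratio of means of 2.43 (difference -1.14, SE 0.141, adjusted p = 0.0983). The scaffold Cab39, which activates it, was at 22.4 and 24.8 RPKM against 28.3 and 30.6 RPKM, a difference of 0.31 that was -0.00749 with chromosome medians removed. Wnk1 differed by -0.21 (SE 0.105).

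**Figure D4:**
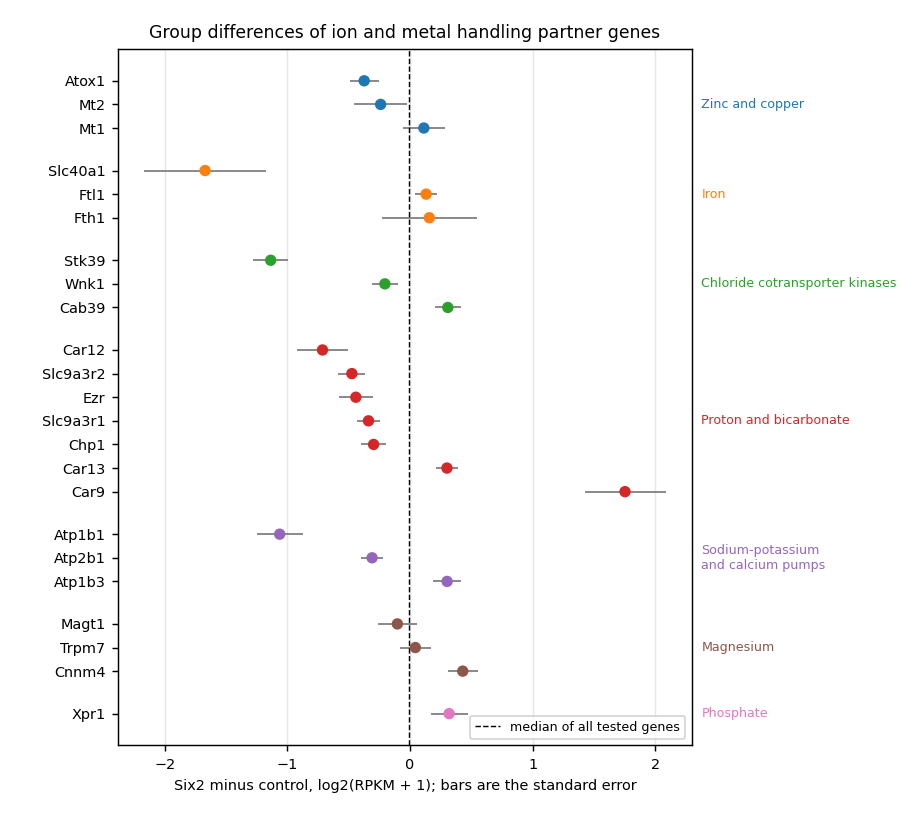
Difference between Six2 and control groups on the log2(RPKM + 1) scale for 23 partner genes, grouped by what they handle, with standard errors; the dashed line is the median of all tested genes. Slc40a1, Stk39 and Atp1b1 lie below -1 and Car9 at 1.75, while Mt1, Mt2, Fth1, Ftl1 and Trpm7 lie near the line.

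Of the iron genes, Slc40a1, which encodes the iron exporter ferroportin, was at 4.62 and 1.12 RPKM in control cells against 0.154 and 0.0181 RPKM in Six2 libraries. The groups did not overlap, but the control libraries were far apart themselves, and the Six2 levels rest on 26 and 5 reads (difference -1.67, SE 0.495, adjusted p = 0.224). Without control replicate 2 the difference was -2.37 (adjusted p = 0.0386) and without control replicate 1 it was -0.97 (adjusted p = 0.364), the control group then being 1 library assumed to vary like the Six2 group. Without Six2 replicate 1 or 2 the adjusted p was 0.293 or 0.34. The ferritin chain genes Fth1 and Ftl1 differed by 0.16 (SE 0.389) and 0.13 (SE 0.0915). The copper chaperone gene Atox1 was lower, at 164 and 138 RPKM against 116 and 115 RPKM (difference -0.37, SE 0.119, adjusted p = 0.243).

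Subunit genes of the sodium-potassium pump differed in both directions. The beta subunit gene Atp1b1 was at 6.62 and 4.79 RPKM in control cells against 1.93 and 2.44 RPKM in Six2 libraries (difference -1.06, SE 0.188, adjusted p = 0.141). Its abundant paralogue Atp1b3 was at 118 and 121 RPKM against 160 and 136 RPKM (difference 0.30, SE 0.115). The plasma membrane calcium pump gene Atp2b1 differed by -0.31 (SE 0.0924, adjusted p = 0.227). Cnnm4, of magnesium export, and Xpr1, the phosphate exporter, differed by 0.43 and 0.32; both lie on chromosome 1 and differed by 0.11 and 0.00292 with chromosome medians removed. Magt1 and Trpm7 differed by -0.10 and 0.04.

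None of the transporter or partner differences named here passed the main test over all genes with all 4 libraries. Each is thus a description of these libraries. With the replicate number added to the fit as a block, 32 of 48 named differences passed, as given below. Exons of another GENCODE gene overlap those of 13 of the 39 tested members, among them Slc20a1, Slc39a7, Slc39a9, Slc39a13 and Slc20a2. As the sources used here name no strand setting for the counting, reads of such neighbours cannot be told apart. For Slc39a7 the neighbour, Gm20427, lies on the same strand, which a strand setting would not resolve.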

How the data were processed

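Polyadenylated RNA of 2 control and 2 Six2-labelled 4T07 libraries, grouped by title, was analysed. Per the submitters' processing notes the tools were HTSeq 0.8.0, TopHat2 2.1.1, Bowtie2, Picard 2.9.4, SAMtools 1.5, FastQC 0.11.5 and bcl2fastq 1.8.4, with builds GRCm38 and mm10; the sources used here do not give annotation or strand setting. The authors deposited RPKM values, and no further scaling is stated. Their steps, each worth 1 read, gave read totals and reads (all 14459 genes above 0 in 3 or more libraries came out whole); reads may be understated by a shared factor. limma 3.58.1 in R 4.3.3 fitted log2(RPKM + 1) on group with a variance trend, two-sided, and was tried on simulated reads. The genes fitted were at 1 RPKM or more in 2 libraries. The simulated libraries were independent and lacked the replicate differences that both groups share here. Coordinates are GENCODE's for GRCm38. Named were members at an unadjusted p under 0.05, up to 12 without overlap in each direction and the 2 most abundant of each role, low members apart at 20 or more reads, and partners at an unadjusted p under 0.05 or among the 2 most abundant of their group; most other tested members are given for completeness, chosen after their values were seen. Some tested genes stay in the counts but are not reported here by name. Members and lists were chosen with earlier results of these data known. Alternatives were no filter, a pseudocount of 0.1, relative log expression factors, the replicate number as a block, chromosome medians removed, limma-voom and leaving out each library.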

Additional observations from a re-analysis of the deposited data

How the results depend on the processing

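The 0 higher and 0 lower transporter calls held under every alternative except the replicate block, which called 6 higher and 11 lower members and 2133 higher and 2506 lower genes in all (20% and 23.5%). The labels give both groups replicate numbers 1 and 2 without saying that a number marks a shared culture or day; across 10654 tested genes the difference between control replicates and that between Six2 replicates correlated at r = 0.818. The block made 32 of the 48 named differences pass. Calls over all genes were 3 higher and 9 lower; with no filter on low values they were 0 and 0, and with 1 library left out 2 to 18 and 9 to 50. With no filter the members' median was -0.00203 and 18 of 70 members lay lower without overlap, against 24.5% of the 16679 genes then tested; with 1 library left out the counts without overlap were 11 to 17 higher and 12 to 15 lower.

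Small differences changed sign. With chromosome medians removed this held for Slc39a1 (-0.00106), Slc30a7 (-0.14), Slc30a9 (0.0211), Slc30a4 (0.036), and Cab39 (-0.00749), and with relative log expression factors for Slc30a4 (0.01005); the cause was not tested. With 1 library left out, differences ranged over 0 for Slc11a2 (-0.27 to 0.0768), Slc26a2 (-0.0505 to 0.40), Slc30a4 (-0.11 to 0.10), Slc41a2 (-0.22 to 0.14), Slc4a2 (-0.0323 to 0.17), Mt1 (-0.0937 to 0.32), Mt2 (-0.50 to 0.0217), Fth1 (-0.29 to 0.60), Magt1 (-0.27 to 0.0661) and Trpm7 (-0.0511 to 0.14). Slc39a4, Slc39a8 and Slc4a4 were lower under all alternatives run. With 2 libraries a group, members under 1 RPKM are limited by depth.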

Other observations

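A few iron genes, picked after their values were seen, differed between replicate numbers in the same direction in both groups; the other iron genes listed are not described by this. The transferrin receptor gene Tfrc, for iron uptake, was at 31.6 RPKM in control replicate 1 and 54.3 RPKM in control replicate 2, and at 38.8 and 54.4 RPKM in Six2 replicates 1 and 2. The ferritin heavy chain gene Fth1, for iron storage, was at 2593 and 1612 RPKM in control replicates 1 and 2 and at 3103 and 1675 RPKM in Six2 replicates 1 and 2. Tfrc was thus lower and Fth1 higher in replicate 1 of both groups. The iron importer genes Slc11a2 and Slc39a14 were lower in replicate 1 of both groups, like Tfrc. A shared direction was common and not particular to iron genes: 32 of the 39 tested members had it. The other ferritin gene, Ftl1, went opposite ways in control and Six2 libraries.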
